A study of Mus musculus with 2 samples.

Results

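Of the 46983 genes in the files, 8 are described here: Pros1, Wfdc16, Asic2, Nlgn1, Cidea, Ppp1r14c, Dnah11 and Dmrta1. They were chosen by symbol, from an earlier analysis of these same libraries, because their transcripts stood out in the insulin-rich cells of the library labelled Isl1CKO. Their levels in those cells are therefore a description of how they were picked, and what remains to describe is which other islet cells share them. The study sorted tdTomato-positive cells from islets of Langerhans of 9-day-old mice and counted unique molecular identifiers (UMIs, 1 per captured transcript) in single cells with 10x Chromium 3' chemistry. The library labelled Isl1CKO came from mice carrying Neurod1 Cre/+ and Isl1f/f, and the control library from mice carrying Neurod1 Cre/+ and Isl1f/+. Both genotypes thus carry the Neurod1-driven Cre, which acts in endocrine lineages, and the control also has 1 floxed Isl1 allele. Each library pooled 6 animals, and the tissue was digested in the presence of actinomycin D, which blocks transcription. With 1 library per genotype no difference has a replicate check, no test was run, and the exact 95% intervals printed reflect the error of counting alone.

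Islet beta cells make insulin, and their identity rests on transcription factors such as Pdx1, Nkx6-1 and the LIM-homeodomain protein Isl1, together with the silencing of genes of other cell types. The members belong to unrelated families. Pros1 encodes protein S, a plasma cofactor of activated protein C and a ligand of the Tyro3 and Mertk receptors. Wfdc16 encodes a member of the WAP four-disulfide core family. Asic2 encodes a subunit of proton-gated sodium channels, and Nlgn1 a neuroligin, a postsynaptic adhesion protein that binds neurexins. Cidea encodes a lipid droplet protein best known from brown fat, Ppp1r14c an inhibitor of protein phosphatase 1, Dnah11 a heavy chain of the dynein of motile cilia, and Dmrta1 a transcription factor of the doublesex and mab-3 related family.

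All 3020 barcodes of the library labelled Isl1CKO were kept as cells, with 78068592 UMIs and a median of 24906.5 per cell. In the control library 2504 of 6794880 barcodes held at least 6825 UMIs and were kept, with 72548173 UMIs and a median of 22638.5. Only 4 barcodes were shared between the cells of the libraries. Cells with insulin (Ins1 and Ins2) at 20% or more of their UMIs are called insulin-high: there were 383 in the library labelled Isl1CKO (12.7% of its cells) and 898 in the control library (35.9%). Among beta cell genes outside the insulin threshold, Pdx1 was at 113 against 153 CPM (summed UMIs of the gene, scaled to an equal total of UMIs per class) in Isl1CKO and control insulin-high cells, Nkx6-1 at 142 against 117 CPM, Ucn3 at 60.7 against 152 CPM, and Mafa, with 4 UMIs in the Isl1CKO cells, at 0.272 against 2.97 CPM. Hormone transcripts take unequal parts of the UMIs, and when CPM was taken over UMIs outside islet hormones and mitochondrial genes, Nkx6-1 turned round, at 321 against 387, and Pdx1 was at 257 against 504. Isl1 itself was counted at 461 CPM over all cells of the library labelled Isl1CKO and at 253 CPM over all control cells, which goes against the label. Outside hormone and mitochondrial UMIs the direction turned, at 535 against 554 over all cells and 547 against 724 in cells below the insulin threshold, while in insulin-high cells Isl1 was at 427 against 289. The libraries count 3' ends, the sources used here do not name the deleted part, and a tag outside it would check nothing. Cells are called Isl1CKO below only after the label of their library.

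In insulin-high cells each of the 8 genes was higher in the library labelled Isl1CKO than in the control, which is what the choice of members fixes. Ratios are given relative to the median of all 10080 genes with at least 50 UMIs on the side with the higher CPM, because hormone transcripts take unequal parts of the UMIs. The median itself lay 0.41 above 0 on the log2 scale. Of those genes, 501 (4.97%) were at least 2-fold higher in Isl1CKO insulin-high cells, the members among them, and nothing is read from this count.

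Among the secreted products, Pros1 had 329 UMIs in Isl1CKO insulin-high cells against 26 in control insulin-high cells, or 22.4 CPM (20.1 to 25.0) against 0.608 CPM (0.397 to 0.891). The log2 ratio relative to the median gene was 4.79 (4.21 to 5.43), the fourth highest of the genes compared. Wfdc16 had 542 against 120 UMIs, or 36.9 CPM (33.9 to 40.2) against 2.81 CPM (2.33 to 3.35), with a relative log2 ratio of 3.31 (3.02 to 3.60). Wfdc16 was the member with the smallest ratio.

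Of the membrane proteins, the channel subunit Asic2 had 132 UMIs in Isl1CKO insulin-high cells against 14 in control ones, or 8.99 CPM (7.52 to 10.7) against 0.327 CPM (0.179 to 0.549). Its relative log2 ratio was 4.37 (3.57 to 5.28). The neuroligin Nlgn1 had 195 against 37 UMIs, or 13.3 CPM (11.5 to 15.3) against 0.865 CPM (0.609 to 1.19), with a relative log2 ratio of 3.53 (3.02 to 4.08). For both genes the intervals of the libraries were far apart.

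Of the intracellular proteins, Cidea had 131 UMIs in Isl1CKO insulin-high cells against 7 in control ones, or 8.92 CPM (7.46 to 10.6) against 0.164 CPM (0.0658 to 0.337), and the highest ratio of the 8, with a relative log2 of 5.36 (4.27 to 6.70). The phosphatase inhibitor Ppp1r14c had the most UMIs, 840 against 119, or 57.2 CPM (53.4 to 61.2) against 2.78 CPM (2.30 to 3.33), and a relative log2 ratio of 3.95 (3.67 to 4.24). Ppp1r14c is thus the member whose ratio is best determined by counting. The dynein chain Dnah11 had 82 against 9 UMIs, or 5.59 CPM (4.44 to 6.93) against 0.210 CPM (0.0962 to 0.399), with a relative log2 ratio of 4.32 (3.32 to 5.50). The transcription factor Dmrta1 had 67 against 7 UMIs, or 4.56 CPM (3.54 to 5.80) against 0.164 CPM (0.0658 to 0.337), with a relative log2 ratio of 4.39 (3.27 to 5.76). The plot of CPM in insulin-high cells shows the gap between libraries for each gene.

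**Figure D1:**
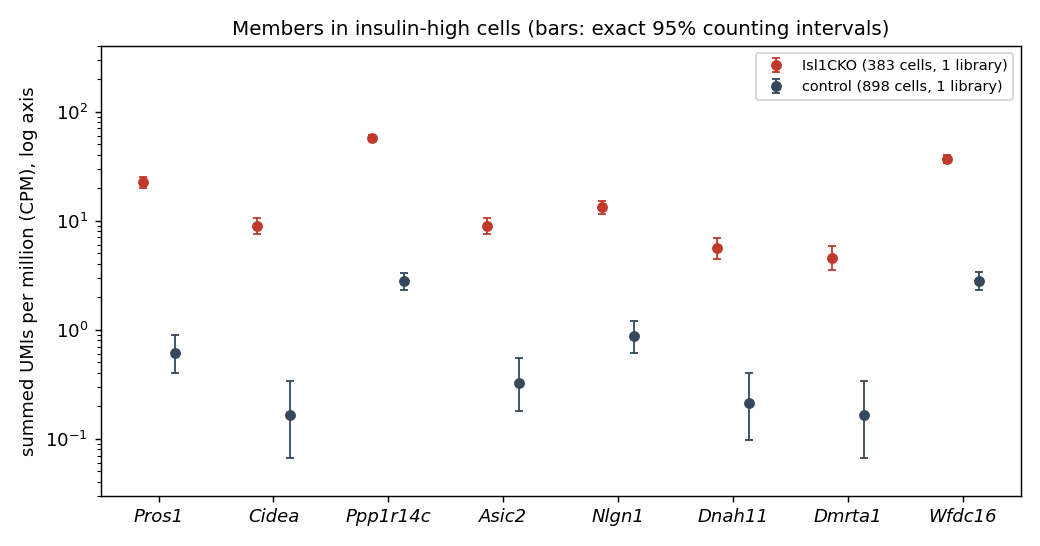
CPM of summed UMIs (log axis) of the 8 genes in insulin-high cells of the library labelled Isl1CKO (red, 383 cells) and of the control library (dark, 898 cells), with exact 95% counting intervals. The members were chosen on this difference, and their relative log2 ratios run from 3.31 for Wfdc16 to 5.36 for Cidea.

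Droplets also catch free RNA, and its composition could be read in the control library only, from 1864285 barcodes with 1 to 100 UMIs. In those background barcodes Wfdc16 stood at 9.99 CPM, Cidea at 4.23, Ppp1r14c at 4.03, Asic2 at 2.11, Pros1 and Dnah11 at 1.54 each and Nlgn1 at 1.15, while Dmrta1 had 0 UMIs, which allows up to 0.709 CPM. In control insulin-high cells 7 of the 8 genes lay below these values. The values give the make-up of free RNA, and how much of it a cell took up was not measured. The counts in control insulin-high cells are therefore read neither as expression nor as free RNA. Dmrta1, with 7 UMIs in 7 control cells, had no UMI in the background, and its level of 0.164 CPM is below what 0 UMIs allow there.

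The matrix labelled Isl1CKO holds no background barcodes, so its insulin-high cells were set against the other cells of the same library. When CPM was taken over UMIs outside islet hormones and mitochondrial genes, 3 transcripts abundant in the other cells, Ttr, Gc and Slc38a5, were found in insulin-high cells at 14.7%, 8.10% and 8.78% of their level in the other cells, and 2 further markers of those cells, Fev and Chgb, at 67.8% and 106%. Cidea stood at 19.4% of its level in the other cells, nearest to Ttr. Dnah11 and Asic2 lay between Fev and Chgb, and the remaining members above both: Dnah11 at 70.2%, Asic2 at 93.6%, Ppp1r14c at 156%, Wfdc16 at 171%, Pros1 at 236% and Nlgn1 at 261%. Dmrta1 was at 10.3 CPM of this kind in insulin-high and 0.148 in other Isl1CKO cells. What part free RNA or doublets have in the members' counts was not tested.

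Markers of other cell types also differed between the insulin-high cells of the libraries. Ttr was at 5140 CPM in Isl1CKO and 1009 CPM in control insulin-high cells, and Chgb at 9645 against 1516 CPM. The summed enterochromaffin list (Tph1, Tac1, Lmx1a, Chga, Chgb) was at 21598 against 8967 CPM, with Lmx1a at 0 in both, and the endocrine progenitor list (Neurog3, Fev, Cck, Pax4) at 91.7 against 10.7 CPM. Fev reached the 3 UMIs used for the Fev class in 145 Isl1CKO and 28 control insulin-high cells. Their part in the members' levels was not tested, but among cells that passed the insulin threshold and none of the Ttr, Fev and Chgb ones (233 Isl1CKO, 869 control), Pros1 was at 18.3 against 0.483 CPM, Ppp1r14c at 48.5 against 2.15, Wfdc16 at 28.2 against 2.44, Nlgn1 at 14.0 against 0.869, Asic2 at 8.004 against 0.338, Dmrta1 at 5.78 against 0.169, Cidea at 3.11 against 0.169 and Dnah11 at 2.34 against 0.193. Cidea and Dnah11 were thus the members whose Isl1CKO level was much lower in these cells than over all insulin-high cells. Of 5 adipocyte markers, Adipoq, Plin1, Cfd and Lep were at 0 in Isl1CKO insulin-high cells, as were Fgb, Serpina1a and Ahsg of 5 hepatocyte markers, Col1a1, Col1a2, Dcn, Lum and Pdgfra of 7 mesenchymal ones and Sox10 and Cdh19 of 4 Schwann cell ones. The rest of the hepatocyte list, Alb and Apoa2, summed to 9.33 CPM in Isl1CKO against 4.42 CPM over the list in control insulin-high cells, about the level of Cidea. The Schwann cell list summed to 4.22 against 3.81 CPM, the mesenchymal list to 0.136 against 0.631 CPM and the adipocyte list to 0.204 against 0.0701 CPM.

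The genes lie on different chromosomes (GRCm38, GENCODE M21 coordinates): Pros1 at chr16:62854307-62929346 on the plus strand, Wfdc16 at chr2:164634707-164638796 on the minus strand, Asic2 at chr11:80880169-81968457 on the minus strand, Nlgn1 at chr3:25426215-26332460 on the minus strand, Ppp1r14c at chr10:3366057-3464975 on the plus strand, Dnah11 at chr12:117877982-118199043 on the minus strand and Dmrta1 at chr4:89679436-89694772 on the plus strand. All 8, Cidea included, are annotated as protein-coding. Of the nearest protein-coding gene on each side of each member, 16 in all, 3 had enough UMIs to compare in insulin-high cells, Arl13b beside Pros1 (16.3 against 8.14 CPM), Sp4 beside Dnah11 (13.1 against 6.66) and Cdkn2b beside Dmrta1 (10.4 against 5.75), and none of the 3 passed 2-fold relative to the median gene. Wfdc16 lies in a cluster of its family, but its neighbours Wfdc6b (3 against 1 UMIs) and Wfdc9 (1 against 1) were barely counted. Ppp1r14c, Nlgn1 and Dnah11 share exon sequence with genes on the opposite strand, Gm26752 (765 bases), A830092H15Rik (1362 bases) and Cdca7l (642 bases). The sources used here do not say whether counting used the strand, so reads of these pairs may not be separated, although Gm26752 and A830092H15Rik had 0 UMIs in insulin-high cells of both libraries and Cdca7l had 3 against 38.

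RefSeq promoter windows (build GRCm38.p6, 250 bases before to 50 after the start) were used for 7 of the 8 genes, with 2 starts each for Asic2 and Nlgn1. Cidea was left out of this step. The windows below show how unlike the members are at their starts. They are the member with the most matches to TAAT, the core that homeodomain proteins bind, the member best counted, and the one counted mainly in Isl1CKO insulin-high cells. Capitals mark TAAT on either strand, and overlapping matches run together.
Wfdc16, chr2:164638753-164639052, minus strand: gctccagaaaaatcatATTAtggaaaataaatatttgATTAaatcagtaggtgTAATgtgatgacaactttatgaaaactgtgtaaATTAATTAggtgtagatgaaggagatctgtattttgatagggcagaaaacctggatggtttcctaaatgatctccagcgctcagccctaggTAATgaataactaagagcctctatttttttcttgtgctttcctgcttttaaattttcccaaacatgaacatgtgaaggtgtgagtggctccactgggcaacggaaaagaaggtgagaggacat
Ppp1r14c, chr10:3365900-3366199, plus strand: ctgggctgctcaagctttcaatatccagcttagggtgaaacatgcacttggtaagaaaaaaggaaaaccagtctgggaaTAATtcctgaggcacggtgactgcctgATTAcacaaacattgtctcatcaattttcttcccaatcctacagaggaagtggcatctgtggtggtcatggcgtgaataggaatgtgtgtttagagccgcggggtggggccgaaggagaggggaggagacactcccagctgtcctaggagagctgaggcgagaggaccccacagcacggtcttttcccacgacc
Dmrta1, chr4:89687948-89688247, plus strand: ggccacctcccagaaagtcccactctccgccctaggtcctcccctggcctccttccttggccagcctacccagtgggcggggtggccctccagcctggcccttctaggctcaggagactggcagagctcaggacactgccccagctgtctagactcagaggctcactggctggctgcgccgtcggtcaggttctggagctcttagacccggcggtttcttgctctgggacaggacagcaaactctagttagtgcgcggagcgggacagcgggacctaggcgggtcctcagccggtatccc
The Wfdc16 window holds 7 matches and is 37.0% G and C, and 2.37% of all 32851 windows hold at least as many. The Ppp1r14c window holds 2 matches, a number that 34.1% of all windows reach, and the Dmrta1 window, at 65.3% G and C, holds 0. Over the 9 windows of members, 6 held TAAT, against 58.0% of all windows, and 5 held CANNTG, the E-box core, against 72.3%. A match says only that these letters are there.

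In single cells most Isl1CKO insulin-high cells held a UMI of at least 1 of the 8 genes. At full depth Ppp1r14c was found in 76.2% and Wfdc16 in 54.6% of these cells. With every cell cut to an equal depth, no single member was found in most of them. Each cell was thinned to 10000 UMIs, which left out 2 Isl1CKO and 6 control insulin-high cells below that depth. A UMI of at least 1 member was then found in 73.5% of Isl1CKO insulin-high cells (68.8% to 77.9%, n = 381 cells) against 8.63% of control ones (6.87% to 10.7%, n = 892 cells). At least 2 members were found in 40.7% against 0.897%. Without thinning, at median depths of 38693 and 48340 UMIs, the shares with at least 1 member were 95.8% and 18.2%, and the median Isl1CKO insulin-high cell held UMIs of 3 members against 0 in the control. A UMI is not read as expression in a given cell, since the share that free RNA gives in the library labelled Isl1CKO was not measured.

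In the other Isl1CKO classes described next, the share with at least 1 member was 96.1% in Chgb-high, 87.7% in Fev-positive and 80.6% in Ttr-high cells, against 93.8% (79.2% to 99.2%, n = 32 cells), 63.2% and 33.0% in control cells of the same thresholds. The Chgb-high cells of both libraries thus overlapped in this share.

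By gene, the thinned share of insulin-high cells was 42.5% of Isl1CKO against 2.80% of control cells for Ppp1r14c, 29.1% against 3.36% for Wfdc16, 24.1% against 0.785% for Pros1 and 13.9% against 1.46% for Nlgn1. The remaining 4 were rarer, with 8.92% against 0.673% for Asic2, 6.04% against 0.336% for Cidea, 4.46% against 0.224% for Dnah11 and 3.67% against 0.112% for Dmrta1. At full depth no Isl1CKO insulin-high cell held more than 17 UMIs of any member, the highest being for Wfdc16, while Dmrta1 reached 6 in 1 cell and was found in 11.5% of the cells.

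**Figure D2:**
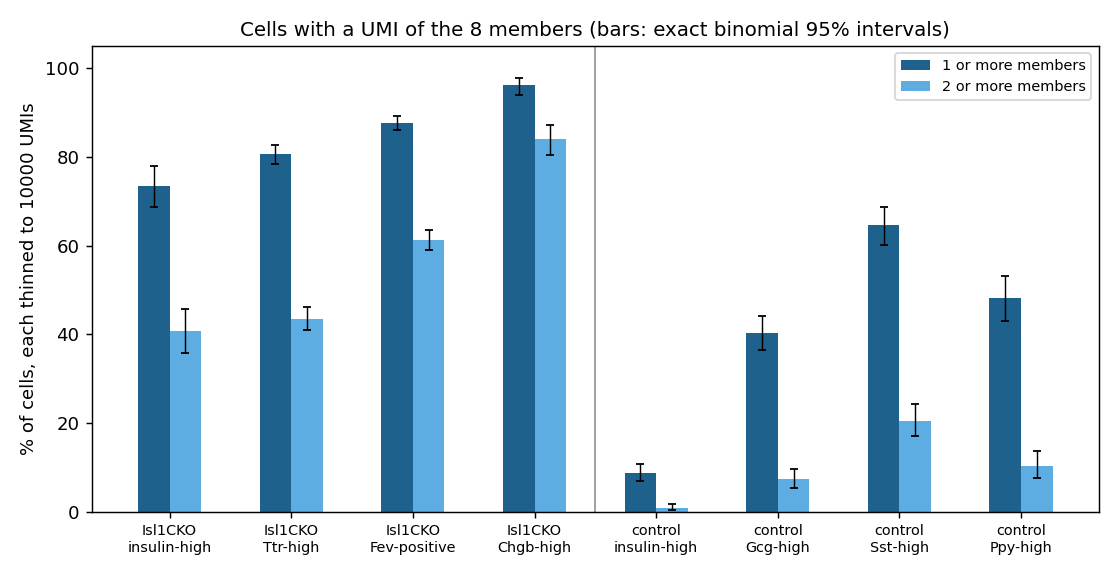
Share of cells (%), each thinned to 10000 UMIs, with a UMI of at least 1 (dark) or at least 2 (light) of the 8 genes, by class, with Isl1CKO classes on the left and control classes on the right; lines are exact binomial 95% intervals. The 4 Isl1CKO classes reach 73.5% to 96.1% for at least 1 member, against 8.63% in control insulin-high cells and 40.3% to 64.5% in the 3 other control classes shown; the 32 control Chgb-high cells, not drawn, reach 93.8%.

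The other Isl1CKO cells were sorted into overlapping classes by 1 threshold each, all with insulin below 20%: Ttr-high (Ttr at 5% or more of UMIs, 1439 cells), Fev-positive (at least 3 Fev UMIs, 1890 cells) and Chgb-high (Chgb at 4% or more, 475 cells). Ttr encodes transthyretin, a carrier protein that alpha cells also make, Fev a transcription factor of endocrine progenitors and serotonergic cells, and Chgb a granin of secretory granules. Of Ttr-high cells, 1025 were also Fev-positive, and 414 Chgb-high cells were too. Each class was set against the same 1606 control cells with insulin below 20%, so these 3 comparisons share their control. The members had been chosen on insulin-high cells, which enter neither side.

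Chgb-high Isl1CKO cells shared the difference for each of the 7 members that could be compared, against a background of 4.88% of 11982 genes at least 2-fold higher. Relative to the median gene, the smallest log2 ratio was 1.28, for Wfdc16, and the largest 3.65, for Cidea. Pros1 was at 57.0 CPM in Chgb-high Isl1CKO cells against 5.27 CPM in control insulin-low cells, a relative log2 ratio of 3.17 (2.91 to 3.44). Asic2 was at 37.0 against 4.77 CPM (2.69, 2.41 to 2.98), and Dnah11 at 31.5 against 7.46 CPM (1.81, 1.56 to 2.07). Ppp1r14c was at 119 against 33.9 CPM (1.55, 1.43 to 1.68) and Nlgn1 at 22.3 against 6.79 CPM (1.45, 1.17 to 1.74).

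This sharing depends on which control cells are set beside them. Only 32 control cells pass the same Chgb threshold, and they held 26.1 CPM of Pros1, 137 CPM of Ppp1r14c, 35.9 CPM of Nlgn1 and 68.6 CPM of Wfdc16. Against those 32 cells, 2 of the 5 members with enough UMIs were at least 2-fold higher in Chgb-high Isl1CKO cells, beside 6.45% of 6321 genes: Cidea with a relative log2 ratio of 2.61 and Dnah11 with 1.06. Pros1 stood at 0.91 and Asic2 at 0.59, and Ppp1r14c was lower, at -0.42. Cidea, Dnah11, Pros1 and Asic2 were compared through the Isl1CKO side alone, with 8 to 16 UMIs in the control cells. Nlgn1 and Wfdc16, higher in CPM in the control cells, had only 22 and 42 UMIs there and could not be compared. The minimum count thus left out members that went the other way, and nothing is read from this count of members. The counting intervals of the Chgb-high cells of both libraries overlapped for Ppp1r14c, Wfdc16, Asic2 and Nlgn1 and did not for Pros1, Cidea and Dnah11.

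Fev-positive Isl1CKO cells were at least 2-fold higher for 5 of 7 members compared, against 5.19% of 13417 genes. Cidea was at 100.5 CPM in Fev-positive Isl1CKO cells against 9.20 CPM in control insulin-low cells, a relative log2 ratio of 3.30 (3.12 to 3.48), Asic2 at 21.4 against 4.77 CPM (2.02) and Pros1 at 20.8 against 5.27 CPM (1.83). Dnah11 at 1.12 and Ppp1r14c at 1.10 passed 2-fold narrowly, and Wfdc16 at 0.94 and Nlgn1 at 0.60 did not reach it. Set against the 209 control cells that pass the same Fev threshold, 2 of 7 members were at least 2-fold higher, beside 5.64% of 10754 genes: Cidea at 3.31 and Asic2 at 1.54, while Pros1 stood at 0.97, Dnah11 at 0.91, Ppp1r14c at 0.50, Wfdc16 at 0.24 and Nlgn1 at -0.0039 on the relative log2 scale.

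Ttr-high Isl1CKO cells shared the difference for 2 of 7 members, against 7.43% of 13247 genes: Cidea, at 94.6 CPM in Ttr-high Isl1CKO cells against 9.20 CPM in control insulin-low cells (relative log2 ratio 3.38, 3.20 to 3.56), and Asic2, at 16.3 against 4.77 CPM (1.79, 1.52 to 2.06). Pros1 did not differ beyond counting error, at 5.26 against 5.27 CPM (0.011, -0.29 to 0.31), and Nlgn1 was lower, at 4.70 against 6.79 CPM (-0.51, -0.80 to -0.23). Dnah11 at 0.86, Wfdc16 at 0.66 and Ppp1r14c at 0.54 stayed under 2-fold. The 645 control cells with Gcg at 5% or more, the alpha cell hormone, gave another picture for 2 genes: against them Ppp1r14c was at 48.8 against 4.17 CPM (relative log2 ratio 3.40) and Pros1 at 5.26 against 1.51 CPM (1.65). Against the 113 control cells that pass the Ttr threshold, 4 of 7 members were at least 2-fold higher, Ppp1r14c, Cidea, Pros1 and Asic2, beside 8.28% of 10254 genes. Ppp1r14c and Pros1 had 5 and 4 UMIs in those 113 cells, or 1.77 and 1.42 CPM, below their level in background barcodes, and in Gcg-high control cells both also lay at about that level.

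Dmrta1 could not be compared in the 3 other classes, because it had 3 UMIs in Ttr-high, 8 in Fev-positive and 3 in Chgb-high Isl1CKO cells and 0 among the 29770421 UMIs of control insulin-low cells, which allows up to 0.124 CPM there.

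**Figure D3:**
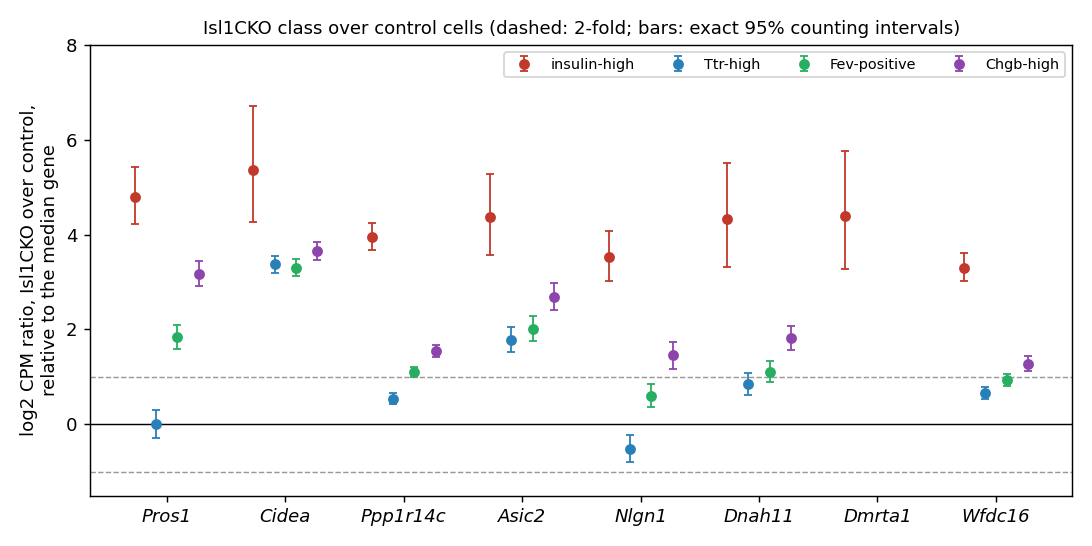
Log2 CPM ratio relative to the median gene, Isl1CKO class over control cells, with exact 95% counting intervals; insulin-high cells are set against control insulin-high cells, and the 3 other classes against the same control insulin-low cells. Cidea and Asic2 lie above the dashed 2-fold line in all 4 classes, and Dmrta1 has a value in insulin-high cells only.

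The 4 Isl1CKO classes and the 4 main control classes (insulin-high, Gcg-high, Sst-high, Ppy-high) were set side by side. In CPM, 7 of the 8 genes were highest in Chgb-high Isl1CKO and lowest in control insulin-high cells, and the order between them differed by gene. This ranking depends on the scale, since insulin fills much of the total in insulin-high cells only. Outside hormone and mitochondrial UMIs, Isl1CKO insulin-high cells lay above Chgb-high ones for Nlgn1 (30.1 against 24.4) and Wfdc16 (83.6 against 71.4). For Ppp1r14c they were about level (129.6 against 130.2), and its control insulin-high level of 9.17 was above the 6.18 of Gcg-high cells. Pros1, Cidea, Asic2 and Dnah11 kept both places. Pros1 stood at 57.0 CPM in Chgb-high Isl1CKO cells, then at 22.4 in insulin-high and 20.8 in Fev-positive ones, whose intervals overlap, and at 5.26 in Ttr-high ones. Outside hormone and mitochondrial UMIs the insulin-high and Fev-positive levels were 50.8 and 21.7. In control cells Pros1 was at 3.09 in Ppy-high, 2.91 in Sst-high and 1.51 CPM in Gcg-high cells, with overlapping intervals. The highest Pros1 levels of any class were in the few collagen-high cells, 223 CPM in 14 Isl1CKO and 122 CPM in 16 control cells.

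Cidea was well counted in the 3 Isl1CKO classes without insulin, at 139 CPM in Chgb-high, 100.5 in Fev-positive and 94.6 in Ttr-high cells. Isl1CKO insulin-high cells, at 8.92 CPM, were on this scale in the range of the control classes, where Cidea was at 12.6 in Sst-high, 7.92 in Ppy-high and 7.27 CPM in Gcg-high cells. Outside hormone and mitochondrial UMIs Isl1CKO insulin-high cells stood at 20.2, against 18.6, 13.5 and 10.8 in those control classes. Asic2 followed a like order in CPM, from 37.0 through 21.4 and 16.3 to 8.99 CPM in Chgb-high, Fev-positive, Ttr-high and insulin-high Isl1CKO cells, against 2.35 to 5.04 CPM in the 3 control classes without insulin. Outside hormone and mitochondrial UMIs, Asic2 was at 20.4 in insulin-high and 16.7 in Ttr-high Isl1CKO cells.

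Ppp1r14c was already abundant in some control cells. It stood at 76.4 CPM in control Sst-high and 35.9 CPM in control Ppy-high cells, against 119 in Chgb-high, 80.5 in Fev-positive, 57.2 in insulin-high and 48.8 CPM in Ttr-high Isl1CKO cells, and the Fev-positive interval (78.0 to 83.1) overlaps that of control Sst-high cells (70.6 to 82.6). Outside hormone and mitochondrial UMIs, control Sst-high cells stood at 113, below the 129.6 of insulin-high and above the 84.0 of Fev-positive Isl1CKO cells. In control Gcg-high cells Ppp1r14c was at 4.17 CPM, at its background level. Isl1CKO cells with Gcg, Sst or Ppy at 5% numbered only 2, 6 and 3, too few to set beside them.

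Dnah11 had a control class of its own, with 12.3 CPM (10.5 to 14.3) in Gcg-high cells against 3.09 in Ppy-high, 1.09 in Sst-high and 0.210 CPM in insulin-high cells. The Gcg-high value is above the 5.59 CPM of Isl1CKO insulin-high cells and overlaps the 13.4 CPM (12.3 to 14.5) of Ttr-high Isl1CKO cells. Outside hormone and mitochondrial UMIs, Gcg-high control cells were at 18.2, against 12.7 in insulin-high and 13.7 in Ttr-high Isl1CKO cells. Dnah11 was at 17.9 CPM in Fev-positive and 31.5 CPM in Chgb-high Isl1CKO cells.

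Wfdc16 varied little over control cells without insulin, at 19.3 in Sst-high, 19.1 in Gcg-high and 16.1 CPM in Ppy-high cells, with overlapping intervals. In Isl1CKO cells it was at 65.4 in Chgb-high, 47.7 in Fev-positive, 36.9 in insulin-high and 35.1 CPM in Ttr-high cells, the last pair overlapping. Outside hormone and mitochondrial UMIs that pair stood at 83.6 and 36.0. Nlgn1 ran likewise from 22.3 in Chgb-high through 13.3 in insulin-high and 11.4 in Fev-positive to 4.70 CPM in Ttr-high Isl1CKO cells, against 4.95 to 5.97 CPM in the 3 control classes without insulin.

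Dmrta1 stood apart from the rest. Its 4.56 CPM in Isl1CKO insulin-high cells compared with 0.313 in Chgb-high, 0.168 in Fev-positive and 0.0692 CPM in Ttr-high Isl1CKO cells, 0.164 CPM in control insulin-high cells and 0 UMIs in control Gcg-high, Sst-high and Ppy-high cells, which allow up to 0.265, 0.447 and 0.457 CPM. The few UMIs outside Isl1CKO insulin-high cells leave the order of the other classes undetermined.

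**Figure D4:**
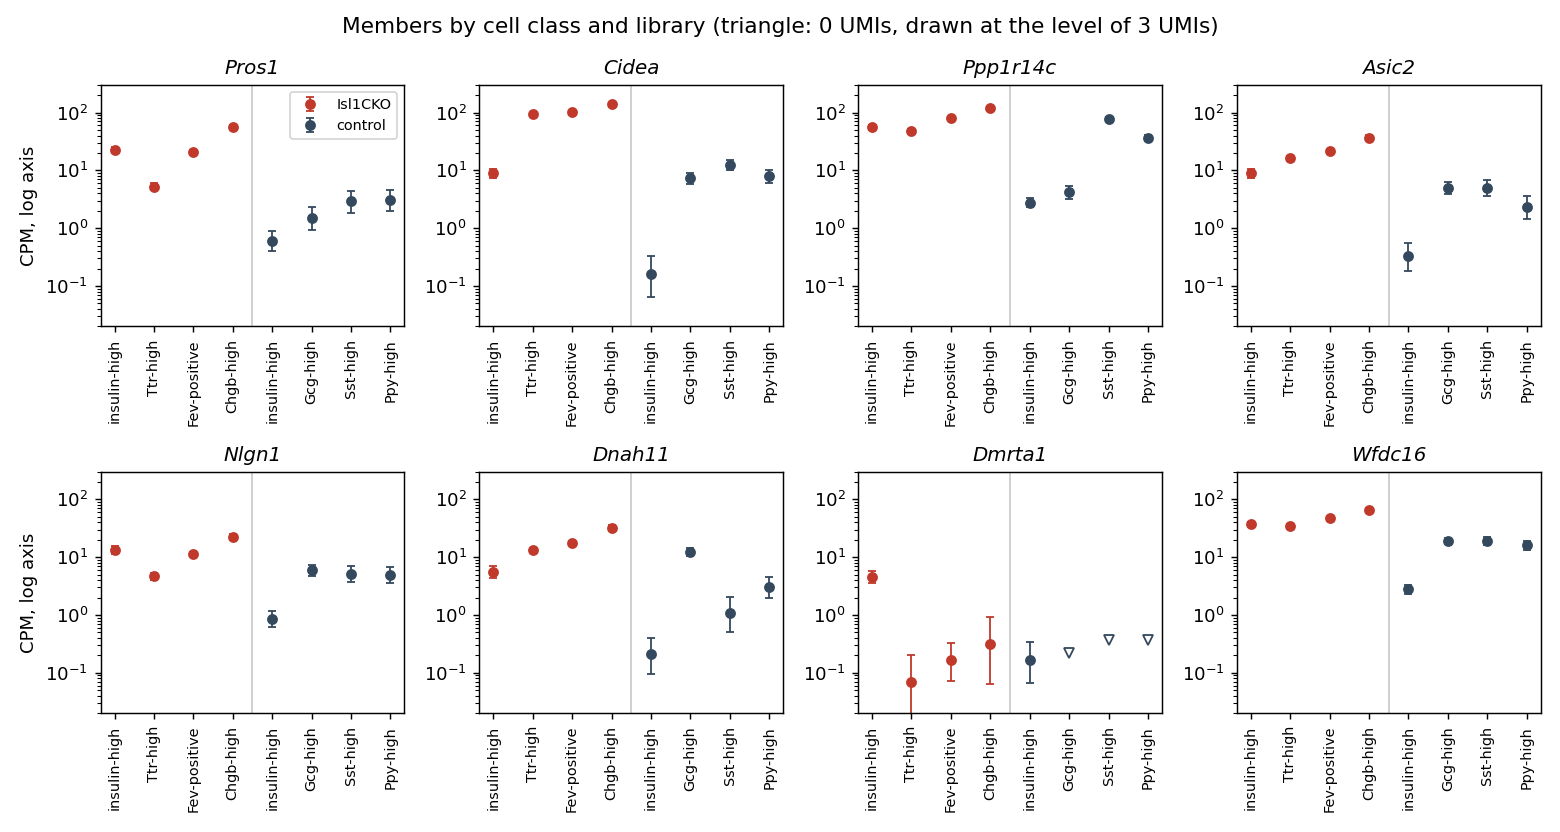
CPM (log axis) of each gene in 4 classes of the library labelled Isl1CKO (red, left) and 4 control classes (dark, right), with exact 95% counting intervals; open triangles mark 0 UMIs, drawn at the level of 3 UMIs. On this CPM scale the control insulin-high cells are the lowest class plotted for 7 genes, and Dmrta1 stands out in Isl1CKO insulin-high cells alone, at 4.56 CPM.

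Within the control library, 7 of the 8 genes were lowest in CPM in insulin-high cells among the 4 main classes. Some other classes also lay near the CPM of background barcodes, such as Gcg-high cells for Pros1 and Sst-high cells for Dnah11. Dmrta1, with 7 UMIs in control insulin-high cells and 0 in the other control cells, could not be compared. Compared with the other control cells, 7 of 7 members with enough UMIs were at least 2-fold lower in insulin-high cells, against 13.5% of 12763 genes that were lower and 5.35% that were higher, and 0 members were higher. The relative log2 ratios ran from -4.62 for Cidea and -3.95 for Dnah11 to -1.78 for Nlgn1. Pros1, Cidea, Asic2, Nlgn1 and Dnah11 had fewer than 50 UMIs in control insulin-high cells. They were thus compared through the other control cells alone, where they were higher. The level in insulin-high cells of either library is also part of how the members were chosen. Nothing is therefore read from the count of members lower in control insulin-high cells. Within the library labelled Isl1CKO the same contrast gave 3 of 8 members at least 2-fold higher in insulin-high than in other cells, against 5.19% of 13627 genes, and 1 lower, against 12.4%. Dmrta1 was higher with a relative log2 ratio of 5.96 (4.95 to 7.15), Nlgn1 with 1.21 (0.98 to 1.45) and Pros1 with 1.07 (0.89 to 1.25), and Cidea was lower with -2.54 (-2.80 to -2.29). Wfdc16 at 0.61, Ppp1r14c at 0.47, Asic2 at -0.27 and Dnah11 at -0.68 lay within 2-fold. Without the division by the median gene, 1 member, Dmrta1, was at least 2-fold higher in insulin-high Isl1CKO cells, beside 1.47% of all genes. Insulin took up a median of 50.4% of the UMIs of these cells.

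Insulin-high cells differed in how much insulin they held, with a median share of 50.4% in Isl1CKO and 65.5% in control cells. In Isl1CKO cells, CPM of 7 members was lower where insulin was higher: Cidea was at 24.2 CPM at 20 to 40%, 6.48 at 40 to 60% and 0.853 CPM at 60% or more insulin, Pros1 at 45.6, 20.4 and 7.89, Wfdc16 at 60.5, 37.5 and 18.6, and Dnah11 at 10.8, 5.86 and 1.28 CPM. Ppp1r14c was at 91.8, 57.7 and 30.7, Nlgn1 at 17.97, 12.6 and 10.7 and Asic2 at 14.5, 8.02 and 6.18 CPM. Dmrta1 went the other way, at 3.71, 4.63 and 5.12 CPM, with overlapping intervals.

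Part of this follows from insulin filling the total, so CPM was also taken over UMIs outside hormones and mitochondrial genes. On that scale Cidea was still lower with insulin, at 38.7, 14.9 and 2.74, as were Dnah11 at 17.3, 13.5 and 4.11, Pros1 at 72.8, 46.8 and 25.3, Wfdc16 at 96.5, 86.1 and 59.5 and Ppp1r14c at 147, 133 and 98.6. Nlgn1 at 28.7, 29.1 and 34.2, and Asic2 at 23.2, 18.4 and 19.8, varied less. Dmrta1 was at 5.92, 10.6 and 16.4 on that scale. The bands also differ in sex, called as below, with 37 female and 65 male cells at 20 to 40% and 84 and 11 at 60% or more. Wfdc16 was higher with insulin in male cells, at 112, 156 and 196, and lower in female cells, at 60.7, 46.8 and 35.3. Dmrta1 in female cells was at 15.6, 14.6 and 16.8. Cidea and Pros1 were lower with insulin in cells of each sex. The 11 male cells at 60% or more held 31 UMIs of Wfdc16, 4 of Pros1 and 0 of Cidea. For these 3 genes their CPM intervals overlapped those of male cells at 40 to 60%. What part sex has in the trends was not tested.

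In control insulin-high cells the same bands held 40, 185 and 673 cells, against 112, 168 and 103 Isl1CKO cells, so the classes are filled differently. Wfdc16 was at 22.2, 8.81 and 0.766 CPM over the control bands, Ppp1r14c at 18.1, 6.84 and 1.33 and Pros1 at 1.65, 1.45 and 0.383 CPM. The members were chosen on the gap between the libraries, so only its size is described by band: the relative log2 ratio of Wfdc16 was 1.23, 2.03 and 4.68 over the 3 bands, that of Ppp1r14c 2.12, 3.02 and 4.62, and that of Nlgn1 2.23, 2.45 and 4.59. Just outside the insulin threshold, 44 Isl1CKO cells with 15 to 20% insulin had 38.0 CPM of Pros1, 57.7 of Cidea, 94.3 of Ppp1r14c and 57.7 of Wfdc16, against 46.2, 41.5, 109 and 80.0 CPM in the 21 cells just inside it at 20 to 25%, and the control library had 2 and 5 such cells.

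**Figure D5:**
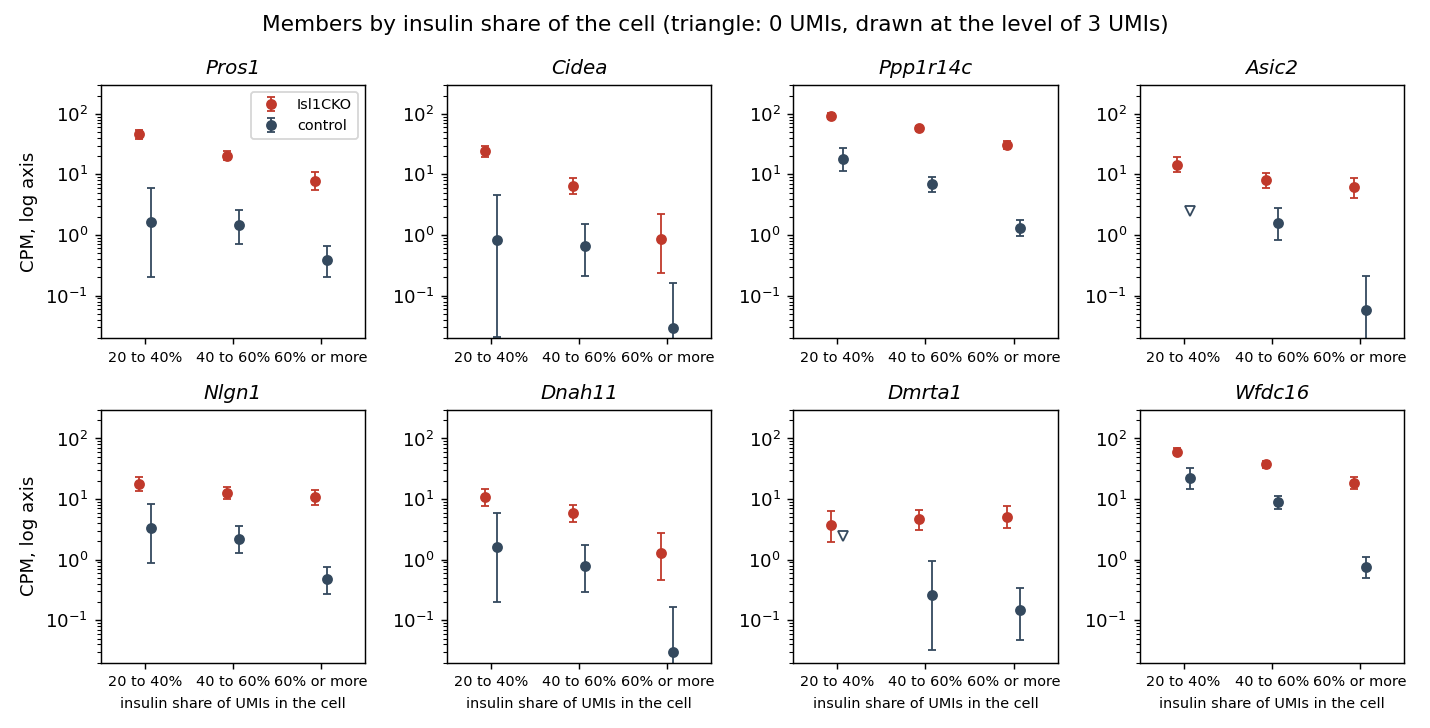
CPM (log axis) of each gene in insulin-high cells by insulin share of the cell (20 to 40%, 40 to 60%, 60% or more of UMIs), in the library labelled Isl1CKO (red, left) and the control library (dark, right), with exact 95% counting intervals and open triangles for 0 UMIs, drawn at the level of 3 UMIs. Pros1 is at 45.6, 20.4 and 7.89 CPM in Isl1CKO against 1.65, 1.45 and 0.383 CPM in control cells, and Dmrta1 keeps 3.71 to 5.12 CPM in Isl1CKO cells.

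The sexes were unevenly present, with 221 female and 130 male cells among Isl1CKO insulin-high cells against 188 female and 615 male ones among control insulin-high cells, called by Xist or Y-linked UMIs. Cells of each sex come from different animals of a pool, so sex and animal cannot be told apart. The gap by sex restates the contrast that chose the members and is given as a description. In female cells the plain CPM ratio of Isl1CKO over control was 24.0 (11.4 to 60.6) for Pros1, 17.5 (11.4 to 28.3) for Ppp1r14c and 6.24 (4.08 to 9.94) for Wfdc16, and in male cells 48.7 (29.6 to 84.6), 28.4 (22.4 to 36.3) and 25.2 (19.7 to 32.4).

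Within Isl1CKO insulin-high cells, Wfdc16 was at 70.3 CPM in male and 17.9 CPM in female cells, Cidea at 14.6 against 3.40, Dnah11 at 11.8 against 2.16 and Asic2 at 13.5 against 5.79 CPM. Dmrta1 was lower in male cells, at 2.18 against 6.13 CPM, while Nlgn1 was at 12.7 against 13.7 CPM. Male cells also held less insulin, with a median of 40.0% against 57.4%. In the 40 to 60% band alone, with 54 male and 100 female cells and medians of 50.1% and 52.4%, Wfdc16 was at 70.6 CPM in male against 19.8 CPM in female cells, Dnah11 at 12.0 against 2.32 and Pros1 at 21.6 against 19.3 CPM. In control insulin-high cells Wfdc16 was at 2.79 CPM in male and 2.87 CPM in female cells.

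Msln, the gene of the surface protein mesothelin, marks part of the insulin-high cells and was at 688 CPM in Isl1CKO against 76.7 CPM in control ones. Among cells with an Msln UMI (270 Isl1CKO, 287 control), Pros1 was at 21.3 against 1.31 CPM, Ppp1r14c at 52.9 against 4.08, Wfdc16 at 29.8 against 4.302 and Dmrta1 at 5.77 against 0.219 CPM. Among cells without one (113 Isl1CKO, 611 control), Pros1 was at 25.6 against 0.275, Ppp1r14c at 69.7 against 2.17, Wfdc16 at 57.8 against 2.10 and Dmrta1 at 1.06 against 0.138 CPM. Dmrta1 had 63 of its 67 UMIs in Isl1CKO insulin-high cells with an Msln UMI, and among cells without one it rests on 4 UMIs in each library.

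Over 9 lists of the members' families and pathways, 37 genes could be compared in insulin-high cells, of which 7 were at least 2-fold higher in Isl1CKO cells and 5 lower. Over all genes compared 4.97% were higher and 4.73% lower, and the lists were chosen with earlier results known. A gene is compared through the side with the higher CPM, so a low gene can enter only where it is high. Esrrg and Wfdc10 entered through the Isl1CKO side alone, and Asic1, Scnn1g, Cadm1 and Dnah8 through the control side alone, so nothing is read from their direction. Of the protein S system, 3 of the 4 genes compared, of 11 listed, were at least 2-fold higher in Isl1CKO cells and 0 lower, with a list median of 1.42 against 0 over all genes on the relative log2 scale. They were Gas6, the other ligand of the receptors that protein S binds, at 6.95 against 1.75 CPM, F5, coagulation factor V, at 5.11 against 1.36 CPM, and Proc, protein C, at 4.16 against 1.24 CPM. Each had between 61 and 102 UMIs in Isl1CKO insulin-high cells.

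Cidea's surroundings split. Of 16 genes of the CIDE family and lipid droplets, 7 could be compared and 0 were higher or lower by 2-fold (median 0.06). Of 10 genes of the brown fat programme, 2 could be compared and both were higher. Prdm16, a transcriptional regulator, was at 6.47 against 1.82 CPM. Esrrg, a nuclear receptor, was at 5.11 against 0.701 CPM, and with 75 against 30 UMIs it was compared through the Isl1CKO side alone. The other 8 had too few UMIs to compare.

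Of 15 regulators and subunits of protein phosphatase 1, 10 were compared, with a median of -0.04. Ppp1r14b, a paralogue of Ppp1r14c, was higher at 195 against 59.0 CPM, Ppp1r1a, another inhibitor of the phosphatase, was lower at 257 against 401 CPM, and the other 8 lay within 2-fold. Of 7 acid-sensing and epithelial sodium channel genes, 3 were compared. Asic1, at 1.70 against 4.46 CPM, and Scnn1g, at 1.23 against 3.06 CPM, were lower. Both were compared through the control side alone, so their direction is not set against that of Asic2. Scnn1b lay within 2-fold, at 51.3 against 47.1 CPM, and the list median of -1.73 is the value of Scnn1g. Of 8 neuroligin, neurexin and partner genes, 5 were compared and Cadm1 was lower, at 1.77 against 3.53 CPM (median of the list 0.16).

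Beside Dnah11, other motile cilium genes were mostly too low to compare. Of 18 such genes found in the files under their symbols, 5 were compared, 0 were higher and Dnah8, another dynein heavy chain, was lower at 1.16 against 4.07 CPM (list median 0.01). Of 6 genes of the DMRT family besides Dmrta1, 0 had enough UMIs. Of 16 WFDC family genes, 1 could be compared, through the Isl1CKO side alone. It was Wfdc10, higher at 4.22 against 0.164 CPM, with 62 UMIs in Isl1CKO insulin-high cells against 7 in control ones.

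Over the 8 classes plotted by gene, Pearson's r of log2(CPM + 1) describes which genes had the most similar levels among those with at least 50 UMIs in Isl1CKO insulin-high cells. The classes of a library share its preparation and depth and some share cells, so r is a description. The 2 most similar genes were Gadd45a (0.988) and Synpr (0.985) for Pros1, Dnaaf5 (0.973) and Pgm2l1 (0.971) for Wfdc16, Hnrnpa0 (0.996) and Scarb1 (0.994) for Asic2, Clip2 (0.989) and Fam109a (0.975) for Nlgn1 and Sgk3 (0.998) and Bckdha (0.996) for Cidea. For Ppp1r14c they were C77080 (0.980) and Ak1 (0.971), for Dnah11 Rhou (0.990) and Mtmr7 (0.989), and for Dmrta1 Tmeff2 (0.979) and Ccl5 (0.946). Among the members, r between pairs of the 7 genes other than Dmrta1 lay between 0.449 (Ppp1r14c and Dnah11) and 0.956 (Asic2 and Wfdc16), and Dmrta1 had r between -0.09 and 0.465 with the others. Tmeff2 had 9.13 CPM in Isl1CKO insulin-high cells against 0.818 CPM in control insulin-high cells and at most 0.625 CPM in the other Isl1CKO classes. It was picked for its likeness to Dmrta1 over these same classes, so these levels restate that choice.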

How the data were processed

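The authors deposited whole-number UMI counts per gene and barcode, not normalized, per the labels and the values, for 1 library per genotype. The submitters' processing notes name GRCm38.p6 as the build, with Seurat 4.3.0.1, STAR 2.7.3a and STARsolo as tools, and give no role for any of them. The matrix labelled Isl1CKO holds only 3020 barcodes, the lowest with 4882 UMIs, while the control matrix is unfiltered. Control barcodes were kept from 6825 UMIs upwards, 1/10 of the value at percentile 99 among the 3000 deepest.

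UMIs were summed per class and library and scaled to CPM. Genes with at least 50 UMIs on the side with the higher CPM were compared, relative to the median gene, and a ratio of at least 2 was counted. A count of 0 was set to 3 UMIs. Intervals are exact Poisson (CPM), conditional binomial (ratios) and Clopper-Pearson (shares) at 95%, for counting error only. No test was possible with 1 library per genotype, and no doublet caller was run. The ratio and call rule were tried on simulated counts with counting error alone. The genes changed there had more control UMIs than any member and smaller changes, so the range of the members was not covered. Named genes are the members, their 2 most similar genes over the classes, the nearest protein-coding genes and listed genes past 2-fold, up to 4 a list. Members and lists were chosen with earlier results of these data known. Identifiers were matched to GENCODE M21 (46488 of 46983), and the sources used here do not name the counting release. The alternatives varied the barcode rule, mitochondrial and insulin thresholds, mixed hormones, cycling, Msln, sex, scaling, minimum count, depth, doublets, class overlap and control cells. Figures used matplotlib 3.10.9, and computations scipy 1.17.1, pandas 2.3.3 and numpy 2.4.6 in Python 3.11.15.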

Additional observations from a re-analysis of the deposited data

Results flagged for a closer look

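For 4 genes the same contrast pointed opposite ways in the 2 libraries, with counting intervals on either side of 0, though the difference was not tested. Insulin-high over other cells gave relative log2 ratios of 1.07 in Isl1CKO and -1.92 in control cells for Pros1, 0.47 and -2.41 for Ppp1r14c, 1.21 and -1.78 for Nlgn1, and 0.61 and -1.81 for Wfdc16. For Ppp1r14c and Wfdc16 the opposite direction depends on the division by the median gene, since their plain CPM ratios in Isl1CKO cells were 0.72 and 0.79, the same direction as in control cells, while those of Pros1 and Nlgn1 were 1.09 and 1.20. Nlgn1 also pointed opposite ways between classes, with Isl1CKO over control at 3.53 in insulin-high cells and at -0.51 in Ttr-high cells. The insulin-high values are the ones the members were chosen on.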

How the results depend on the processing

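No paired analysis was possible because each genotype is 1 library, and for the same reason no replicate could be left out. Of 94 recomputed counts of members at least 2-fold higher, 78 stayed within 1.5 times the reported count. In insulin-high cells these counts restate the contrast that chose the members, which were compared through their Isl1CKO UMIs, so nothing is read from them: 4 of 4 compared without an Msln UMI (4.65% of all genes) and after thinning to 10000 UMIs (4.17%), 5 of 5 at 40 to 60% insulin (3.45%) and 3 of 3 at 60% or more (4.21%). Over all alternatives in which it could be compared, the relative log2 ratio ran from 3.67 to 5.97 for Pros1, from 4.66 to 6.50 for Cidea, from 2.12 to 4.62 for Ppp1r14c, from 2.29 to 5.01 for Asic2, from 2.23 to 4.59 for Nlgn1, from 4.09 to 5.81 for Dnah11, from 3.96 to 5.47 for Dmrta1 and from 1.23 to 4.68 for Wfdc16. Ttr-high cells had 4 members higher against control Gcg-high cells (8.52% of all genes) or control cells of the same Ttr threshold, in place of 2 reported. Fev-positive cells had 3 in female cells (6.59%), 3 (2.96%) when CPM without hormone and mitochondrial UMIs was not taken relative to the median gene, and 2 against control cells of the same threshold, in place of 5 reported. Chgb-high cells had 3 of 4 compared in female cells (3.98%), 4 of 4 in cells that meet 1 threshold only (5.85%), and 2 of 5 against control cells of the same threshold, where Ppp1r14c was at -0.42 in place of 1.55. Insulin-high over other Isl1CKO cells gave 1 without the division by the median gene, by the mean of per-cell CPM (4.51%), or with no minimum count (28.5%), in place of 3, and in control cells 1 with no minimum (Dmrta1, 15.7%), in place of 0. The cause was not tested except where fewer members were compared. The bands and the choice of other control cells were added after seeing the data. Of 651 values for single members, 483 stayed within the reported counting interval and 13 changed sign, 1 of them a reported value of at least 2-fold (Ppp1r14c in Chgb-high cells) and 12 reported values under 2-fold, such as Pros1 in Ttr-high cells.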
